A study of Mus musculus with 12 samples.

Results

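SOD1-G93A mice carry a human SOD1 gene with a mutation found in familial amyotrophic lateral sclerosis, and lose spinal motoneurons with age. Here, the effect of the transgene on the spinal cord transcriptome was measured over both Plekhg5 backgrounds, with 6 libraries that carried SOD1-G93A against 6 that did not, out of 12 libraries in the series. The 4 genotypes were Plekhg5+/+, Plekhg5-/-, Plekhg5+/+ SOD1-G93A and Plekhg5-/- SOD1-G93A, with 3 mice each. All animals were 7 months old and on a C57BL/6 background, their whole spinal cord RNA was sequenced, and the SOD1-G93A line was the low copy line, which the study describes as slow in its disease course. Plekhg5 is a guanine exchange factor of neurons whose loss causes motoneuron disease, and the study crossed both lines to look at how loss of Plekhg5 affects the release of mutant SOD1. In the model used here, SOD1-G93A (present or absent) and Plekhg5 (WT or KO) were separate additive terms, so that the transgene term was the average difference over both backgrounds. A response common to both backgrounds also had to show in each of them, and the effect within each background is therefore given beside the average.

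In the spinal cord of mutant SOD1 mice, microglia, the resident phagocytes, are known to lose part of their resting profile and to gain a program of lipid handling, lysosomal and antigen-presenting genes that is called disease-associated. Astrocytes become reactive, with more intermediate filaments and secreted protease inhibitors. Motoneurons, the large cholinergic cells of the ventral horn, retract their axons and are lost, and injured neurons switch on transcription factors such as Atf3. In RNA of whole tissue, fewer cells of a type and less RNA per cell cannot be told apart.

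The libraries held 30415643 to 38743628 counts, and Mbp, a myelin gene, had the most counts in all 12. Human SOD1, whose cDNA was added to the reference, had 142348.5 to 196852 counts in the 6 SOD1-G93A libraries and 5 to 187 in the others, so the labels and the transgene matched. Its level was 4990 ± 612 CPM (normalized counts scaled to library size) in Plekhg5+/+ SOD1-G93A and 5000 ± 97.1 CPM in Plekhg5-/- SOD1-G93A mice (SD, n = 3 each), a difference with p = 1 in a two-sided exact permutation test, which cannot give a p under 0.1 at this size. Endogenous Sod1 differed by -0.03 ± 0.07 on the log2 scale (SE, n = 6 against 6, adjusted p = 0.93). Plekhg5 itself had 19.4 to 25.0 CPM in the Plekhg5+/+ and 3.28 to 4.72 CPM in the Plekhg5-/- libraries, and differed with the transgene by 0.02 ± 0.10 (adjusted p = 0.95). Transcripts of Y-linked genes were present in 3 of the 6 SOD1-G93A and 5 of the 6 other libraries. The first Plekhg5+/+ SOD1-G93A library stood apart from the other 5 SOD1-G93A libraries in most of the genes described here. Calls and medians without it are given for many of the gene lists, and lists without such a value may have moved as well.

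With SOD1-G93A, 22 of 20155 genes rose over both backgrounds at an adjusted p under 0.05 (edgeR quasi-likelihood test, 0.109% of the genes tested), and 0 genes fell (0%, against 120 genes with DESeq2 and 42 with limma voom). At an unadjusted p under 0.05, 1775 genes were higher (8.81%) and 996 lower (4.94%). Human SOD1 and 21 mouse genes made up the call. The mouse genes with the largest log2 fold changes were Mmp12, Atp6v0d2, Ccl3, Kif18b and Gpnmb. Of the gene lists used below, disease-associated microglia (Gpnmb), chemokines and cytokines (Ccl3) and axon injury (Atf3) held 1 called gene each. The log2 fold changes of the mouse genes ran from 0.64 to 3.37, with a median of 1.35, beside a median of -0.01 over all genes tested. In all 22, the 6 SOD1-G93A libraries lay above the 6 others, as they did in 304 genes in all (1.51%), while 58 genes (0.288%) lay below. Of the called genes, 22 were also called in the Plekhg5+/+ background alone and 1, human SOD1, in the Plekhg5-/- background alone (0.00496% of the genes tested), where the adjusted p of the 21 mouse genes was 0.214 to 0.676. The size of the call depended on single libraries: it was 196 genes without the first Plekhg5+/+ SOD1-G93A library, 113 without the first Plekhg5-/- library and 37 without the second Plekhg5+/+ SOD1-G93A library, and 3 without the first or the second Plekhg5+/+ library, 6 without the third Plekhg5+/+ or the third Plekhg5-/- library, 7 without the second and 11 without the first Plekhg5-/- SOD1-G93A library. All 22 genes were among the 196 and among the 133 called with an indicator of Y-linked transcripts in the model, whose part in the result was otherwise not tested.

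Mmp12 had the largest log2 fold change of the called mouse genes. The gene (macrophage elastase, chromosome 9, 7344397 to 7360461 on GRCm38.p6, plus strand) had 0.09, 0.16 and 0.03 CPM in the Plekhg5+/+ libraries against 4.72, 2.57 and 1.74 in Plekhg5+/+ SOD1-G93A, and 0.38, 0.21 and 0.38 in Plekhg5-/- against 1.76, 1.58 and 1.27 in Plekhg5-/- SOD1-G93A. The groups did not overlap in either background, and the levels in SOD1-G93A mice were closer together when Plekhg5 was absent. Its log2 fold change was 3.37 ± 0.45 (SE, n = 6 against 6, adjusted p = 0.021), with 4.99 in Plekhg5+/+ and 2.23 in Plekhg5-/-. Atp6v0d2, the d2 subunit of the vacuolar proton pump found in osteoclasts and macrophages (chromosome 4, 19876838 to 19922566, minus strand), had 0, 1 and 2 counts in Plekhg5+/+, 2, 6 and 4 in Plekhg5-/-, 29, 20 and 13 in Plekhg5+/+ SOD1-G93A and 29, 39 and 25 in Plekhg5-/- SOD1-G93A mice. The groups did not overlap, and the gene was called in all 22 alternatives that gave a value for it. The filter with at least 10 counts in every library gave none. A gene with so few counts without the transgene could pass the filter on low counts through the SOD1-G93A libraries. Its separation is therefore no added support for a rise. The same limit held for the called genes Mmp12, Kif18b, Il1rn, Rgs1, Ms4a7 and Baiap2l2. The log2 fold change of Atp6v0d2 was 3.32 ± 0.39 (adjusted p = 0.0093).

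Gpnmb, a transmembrane glycoprotein of lysosomes in activated phagocytes (chromosome 6, 49036518 to 49058182, plus strand), was more abundant. It had 3.25, 2.39 and 2.82 CPM in Plekhg5+/+ mice, 58.3, 27.9 and 15 in Plekhg5+/+ SOD1-G93A, 5.71, 5.27 and 3.57 in Plekhg5-/- and 20.6, 21.9 and 13.8 in Plekhg5-/- SOD1-G93A mice. Even the lowest SOD1-G93A library was above every other library. Gpnmb rose by 2.73 ± 0.40 (adjusted p = 0.040), and by 2.37 without the first Plekhg5+/+ SOD1-G93A library (adjusted p = 0.0020). Ccl3, a chemokine that attracts monocytes and T cells (chromosome 11, 83647843 to 83649378, minus strand), had 0.18 to 0.64 CPM without the transgene, 2.79 to 8.23 in Plekhg5+/+ SOD1-G93A and 1.63 to 1.79 in Plekhg5-/- SOD1-G93A mice, a rise of 2.85 ± 0.42 (adjusted p = 0.025). Of the remaining genes with immune functions, Il1rn, which encodes the antagonist of the interleukin-1 receptor, rose by 2.41 ± 0.34, Rgs1, a brake on chemokine receptor signals, by 2.34 ± 0.34, and Ms4a7, a membrane protein of macrophages, by 2.13 ± 0.31 (adjusted p = 0.021, 0.023 and 0.021). Lysozyme was the most abundant of the called mouse genes per length. Lyz2 (chromosome 10, 117277541 to 117282272, minus strand) had 29.5 to 37.5 CPM without and 58.5 to 169 CPM with the transgene, and rose by 1.37 ± 0.20 (adjusted p = 0.034). Lyz1 lies next to Lyz2 and is nearly identical to it, and reads shared by both were split, so that its rise of 1.15 ± 0.17 (adjusted p = 0.021) is uncertain.

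The remaining called genes had varied roles. Arpc1b, a subunit of the Arp2/3 complex that nucleates actin branches (chromosome 5, 145114256 to 145128186, plus strand), had 19.7 to 24.4 CPM in the 6 libraries without the transgene. In Plekhg5+/+ SOD1-G93A it had 55.3, 34.7 and 36.8 CPM, and in Plekhg5-/- SOD1-G93A 32.3, 33.5 and 31.1 CPM, which gave a log2 fold change of 0.79 ± 0.10 (adjusted p = 0.011). Capg, which caps actin filaments in macrophages, rose by 1.20 ± 0.19 (adjusted p = 0.041), S100a4, a calcium-binding protein that acts on myosin, by 1.35 ± 0.21 (adjusted p = 0.027), and Baiap2l2, a membrane-curving protein of low level, by 1.35 ± 0.21 (adjusted p = 0.034). Kif18b, a kinesin of the mitotic spindle, had 2 to 4 counts in the libraries without the transgene and 9 to 49 in those with it (log2 fold change 2.77 ± 0.48, adjusted p = 0.049). Emp3, a small membrane protein, was the called gene nearest the threshold (0.91 ± 0.16, adjusted p = 0.0492), and Cd200r4 the gene just outside it (2.80 ± 0.49, adjusted p = 0.0542). Chst14, a sulfotransferase of dermatan sulfate, rose by 0.64 ± 0.10 (adjusted p = 0.040). For Ugt1a7c, a glucuronosyltransferase whose exons overlap other Ugt1a genes (1.20 ± 0.20, adjusted p = 0.043), and the pseudogene Gm5637 (0.86 ± 0.14, adjusted p = 0.040), many reads were shared with other genes, and both values are uncertain.

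**Figure D1:**
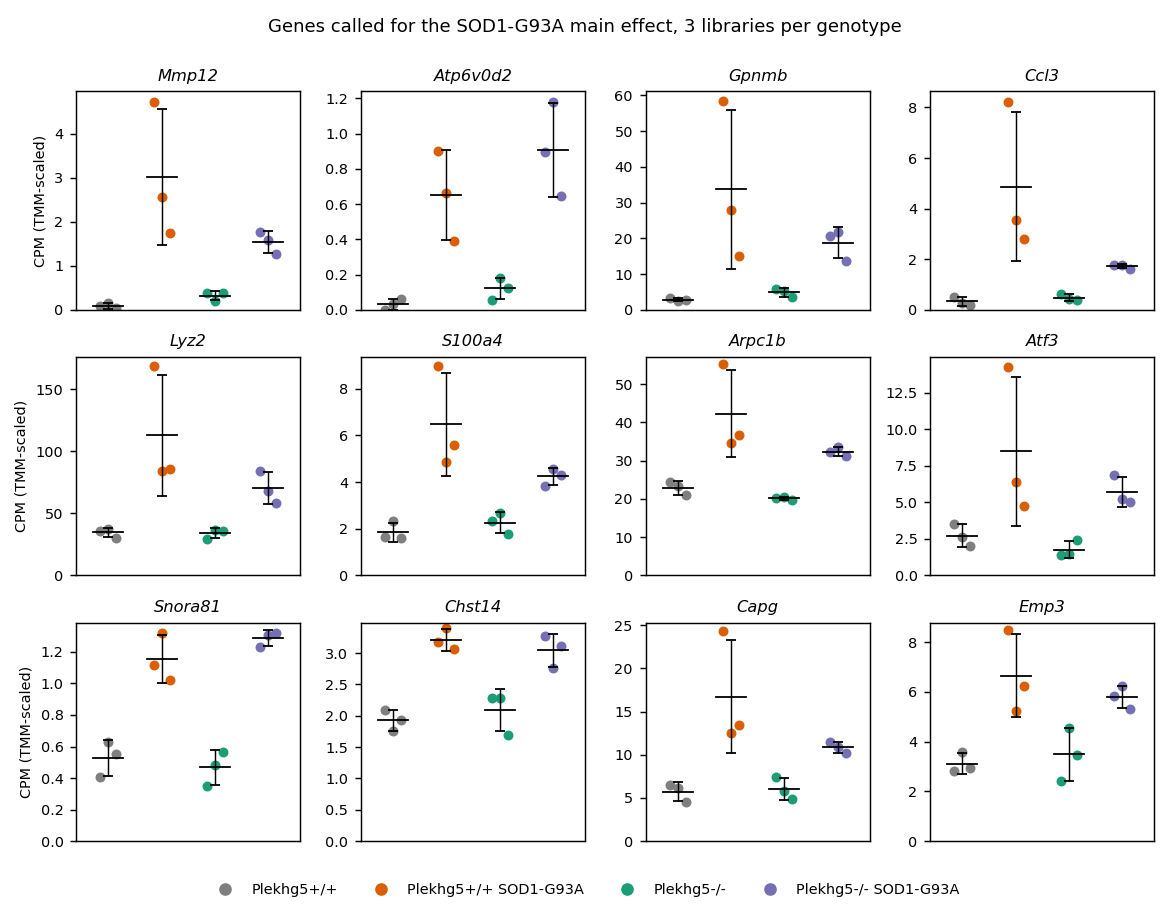
Normalized CPM (linear axis from 0) of 12 genes called for the SOD1-G93A main effect, with 1 point per mouse, the mean as a line and the SD as bars (n = 3 per genotype). In each gene the 6 SOD1-G93A libraries (orange and violet) lay above the 6 others (grey and green), and the first Plekhg5+/+ SOD1-G93A library was often the highest, such as with 58.3 CPM of Gpnmb.

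Atf3 and Snora81 were the called mouse genes whose effect was not larger in the Plekhg5+/+ background. Atf3, a stress transcription factor that injured neurons and macrophages induce (chromosome 1, 191170296 to 191183333, minus strand), had 3.54, 2.64 and 1.99 CPM in Plekhg5+/+ against 14.3, 6.4 and 4.77 in Plekhg5+/+ SOD1-G93A mice. In Plekhg5-/- mice it had 1.40, 1.48 and 2.43 against 6.91, 5.22 and 5.02 CPM with SOD1-G93A. The log2 fold change was 1.64 in the first and 1.69 in the second background, with an average of 1.66 ± 0.26 (adjusted p = 0.037) and an unadjusted p of 0.92 for their difference. Snora81 is a small nucleolar RNA of the H/ACA class (chromosome 16, 23110770 to 23110933, plus strand), a class that guides pseudouridylation of other RNAs. It lies within Eif4a2 (23107444 to 23114136), where it overlaps 2 annotated transcripts that retain the intron. Its sequence in the annotation is given here because Snora81 was called in all 23 alternatives that gave a value for it.
Snora81: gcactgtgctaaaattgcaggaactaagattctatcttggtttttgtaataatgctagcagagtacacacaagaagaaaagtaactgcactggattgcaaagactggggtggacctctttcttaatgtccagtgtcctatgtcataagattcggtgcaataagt
Snora81 had 0.41, 0.63 and 0.55 CPM in Plekhg5+/+ and 1.12, 1.32 and 1.02 in Plekhg5+/+ SOD1-G93A mice, and 0.35, 0.48 and 0.57 in Plekhg5-/- and 1.23, 1.31 and 1.32 in Plekhg5-/- SOD1-G93A mice. Its log2 fold change was 1.29 ± 0.16 (adjusted p = 0.011), with 1.12 and 1.46 in the backgrounds. Its host Eif4a2 differed by -0.10 ± 0.05 (adjusted p = 0.46). Small nucleolar RNAs have no poly-A tail and were counted here in a library of poly-A RNA, so whether these 12 to 51 counts came from the mature RNA or from unspliced Eif4a2 was not tested.

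In 19 of the 21 mouse genes of the call, the effect was larger in the Plekhg5+/+ than in the Plekhg5-/- background. Their median log2 fold change was 1.64 in Plekhg5+/+ and 1.15 in Plekhg5-/-. The difference between backgrounds itself was not called for any of them: 5 of the 22 had an unadjusted interaction p under 0.05, and the smallest adjusted one was 0.354. Over all genes, 0 interactions were called with edgeR (0%) or limma voom and 98 with DESeq2, and in edgeR 1824 had an unadjusted p under 0.05 (9.05%). The first Plekhg5+/+ SOD1-G93A library had the highest mean log2 ratio of these 21 genes to its own background's controls (2.39), against 1.72 and 1.6 in the other Plekhg5+/+ SOD1-G93A libraries and 1.38, 1.31 and 1.13 in the Plekhg5-/- SOD1-G93A libraries. All 6 were above the libraries without the transgene, which lay between -0.11 and 0.09. Within each background this followed from the choice of genes, since each of the 21 had its 6 SOD1-G93A libraries above the others.

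**Figure D2:**
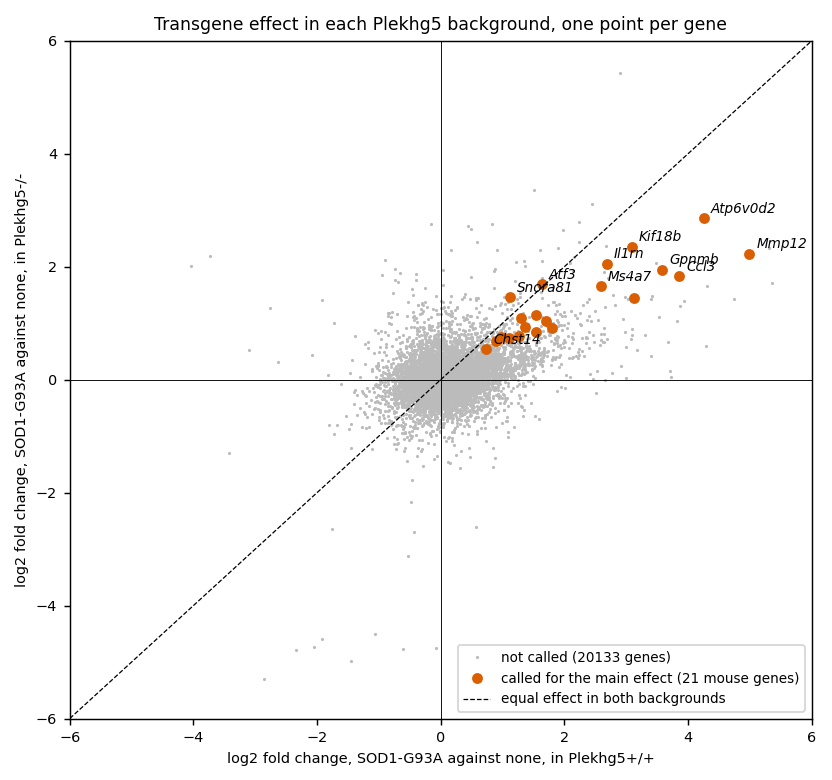
Log2 fold change with SOD1-G93A in Plekhg5+/+ (x axis) and in Plekhg5-/- mice (y axis), with 1 point per mouse gene, the 21 called mouse genes in orange and a dashed line where both effects are equal. All 21 lay in the upper right, 19 of them below the line, and Atf3 and Snora81 at or above it (1 gene lies outside the axes).

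The backgrounds share no library, so the genes called in one could be followed in the other. Of the 421 mouse genes that rose in Plekhg5+/+ SOD1-G93A mice (422 with human SOD1, 2.09% of the genes tested), 384 had a positive log2 fold change in the Plekhg5-/- background, or 91.2% against 48.3% of all mouse genes. For 74 of them (17.6%, against 3.27% of all) the unadjusted p was under 0.05 there. The p-values of both backgrounds came from the same fit and used the same estimate of each gene's spread. The shares at that p are therefore not independent between the backgrounds. Their median was 1.09 in the first and 0.27 in the second background. Of the 76 genes that fell in Plekhg5+/+ SOD1-G93A mice (0.377% of the genes tested), 44 (57.9%, against 51.7% of all) had a negative value in the Plekhg5-/- background, with medians of -0.49 and -0.03. Over all 20154 mouse genes, the 2 effects had a Pearson correlation of 0.372 and a Spearman correlation of 0.149, and 51.9% had the same sign. At an unadjusted p under 0.05 in each background, 198 genes (0.982%) were higher in both, 58 (0.288%) lower in both and 63 opposite. By position of the libraries alone, 411 genes (2.04%) were higher and 112 (0.556%) lower in all SOD1-G93A libraries of each background, and 146 (0.724%) were separated in opposite directions.

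Promoters of the called genes were read from RefSeq (GRCm38.p6, 250 bases before to 50 after each start) to show the sequences of genes that moved together. Windows were found for 15 of the 21 mouse genes, 20 windows in all. The AP-1 motif TGANTCA was in 4 of the 20 windows (Il1rn, Gpnmb, Mmp12 and Ms4a7) and in 7.81% of all 32851 windows, the PU.1 motif GAGGAAGT, searched on both strands, in 3 (S100a4, Arpc1b and Mmp12) against 3.20% of all, and the E-box CACGTG in 1 (Chst14) against 7.15%. AP-1 is the dimer of Fos, Jun and Atf proteins and PU.1 the lineage factor of macrophages. The motifs did not overlap each other, and the AP-1 match of Mmp12 lay in another window than its PU.1 match. The Mmp12 window printed below is the one with the PU.1 motif. A match describes the letters and was not tested as a binding site. A window of each of 3 genes is printed 5′ to 3′, with the motif in capitals.
Gpnmb, chr6:49036268-49036567, plus strand: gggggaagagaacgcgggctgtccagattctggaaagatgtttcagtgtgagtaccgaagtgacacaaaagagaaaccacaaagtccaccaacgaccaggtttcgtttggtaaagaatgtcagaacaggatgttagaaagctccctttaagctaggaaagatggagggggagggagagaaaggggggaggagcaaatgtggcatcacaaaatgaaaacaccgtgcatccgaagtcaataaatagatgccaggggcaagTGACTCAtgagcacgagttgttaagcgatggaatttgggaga
Mmp12, chr9:7344147-7344446, plus strand: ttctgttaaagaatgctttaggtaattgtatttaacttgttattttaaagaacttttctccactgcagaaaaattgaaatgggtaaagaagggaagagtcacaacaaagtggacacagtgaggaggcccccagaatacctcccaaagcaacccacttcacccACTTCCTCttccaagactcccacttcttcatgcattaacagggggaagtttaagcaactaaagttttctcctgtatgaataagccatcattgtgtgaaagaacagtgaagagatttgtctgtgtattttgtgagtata
Arpc1b, chr5:145114006-145114305, plus strand: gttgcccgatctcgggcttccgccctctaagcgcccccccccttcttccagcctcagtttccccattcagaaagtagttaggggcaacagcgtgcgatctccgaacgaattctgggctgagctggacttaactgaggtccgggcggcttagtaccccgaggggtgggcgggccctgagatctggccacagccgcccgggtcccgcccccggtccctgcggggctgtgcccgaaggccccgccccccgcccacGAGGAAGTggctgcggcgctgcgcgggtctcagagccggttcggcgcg
In Gpnmb the AP-1 motif began 8 bases after the start, in Arpc1b the PU.1 motif 2 bases after it, and in Mmp12 the PU.1 motif on the opposite strand 88 bases before it.

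Members of several gene lists were higher over both backgrounds at an unadjusted p, and few were called. In the lists below, counts at an unadjusted p under 0.05 are to be read against the 8.81% of all genes that were higher and the 4.94% that were lower, and medians against -0.01. The number called in several lists changed without the first Plekhg5+/+ SOD1-G93A library and with the tool. Without that library medians went from 0.83 to 0.62 for microglia and macrophages and from 0.839 to 0.636 for chemokines and cytokines. Those of complement went from 0.705 to 0.573 and of the phagocyte NADPH oxidase from 0.98 to 0.78. Fc receptors went from 0.917 to 0.558 (0 to 2 called), lysosomal genes from 0.39 to 0.273. All 16 markers of microglia and macrophages were higher at an unadjusted p under 0.05 and 0 were called. Their median log2 fold change was 0.83, with 1.38 in Plekhg5+/+ and 0.27 in Plekhg5-/- mice. Their summed level was 615 to 935 CPM without the transgene, 1250 to 2460 CPM in Plekhg5+/+ SOD1-G93A and 897 to 1020 CPM in Plekhg5-/- SOD1-G93A mice. The range of the Plekhg5-/- SOD1-G93A mice thus overlapped that of the libraries without the transgene. For 15 of the 16 the unadjusted interaction p was under 0.05, against 9.05% of all genes, and 0 interactions passed adjustment in edgeR. Called were 7 of the 16 without the first Plekhg5+/+ SOD1-G93A library, and 10 with DESeq2 or with the mean of the contrasts in both backgrounds. Among them, Cd53, a tetraspanin of leukocytes, had a log2 fold change of 0.83 ± 0.18 and Cd68, a lysosomal protein of phagocytes, of 1.54 ± 0.33 (adjusted p = 0.0924 and 0.0969).

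Of 20 genes of disease-associated microglia, 16 were higher and 1, Gpnmb, was called. Their median was 0.92 (1.68 in Plekhg5+/+, 0.38 in Plekhg5-/-), and 0.57 without the first Plekhg5+/+ SOD1-G93A library, where 12 members were called. The list holds genes of very unequal size of change. Cst7, an inhibitor of lysosomal cathepsins, had 0.22 to 0.52 CPM in Plekhg5+/+ against 32.1, 6.80 and 5.70 in Plekhg5+/+ SOD1-G93A mice, and 0.41 to 0.88 in Plekhg5-/- against 2.96, 3.46 and 2.23 CPM in Plekhg5-/- SOD1-G93A mice. The groups did not overlap, and the log2 fold change was 3.90 ± 0.68 (adjusted p = 0.063). Itgax, an integrin of dendritic cells and activated microglia (3.02 ± 0.63, adjusted p = 0.097), and Clec7a, a receptor for fungal glucans (2.65 ± 0.59, adjusted p = 0.104), were separated in both backgrounds too. Apoe, Spp1 and Fabp5, which other spinal cord cells also express, had values of 0.43, 0.39 and 0.09. Homeostatic microglia genes were higher in 7 of 10, with a median of 0.32, and 0 were called (2 without that library). The median was 0.646 in Plekhg5+/+ and 0.0274 in Plekhg5-/- mice. For 8 of the 10 the unadjusted interaction p was under 0.05, against 9.05% of all genes. Their sum was 377 to 565 CPM in Plekhg5+/+ SOD1-G93A mice. In Plekhg5-/- SOD1-G93A mice it was 306 to 318 CPM, within the 244 to 332 CPM of the libraries without the transgene. Olfml3 (0.80 ± 0.16) and Fcrls (1.62 ± 0.34) had the smallest p of that list (adjusted p = 0.0855 and 0.0973), while P2ry12, a purine receptor, and Tmem119, the common surface markers of resting microglia, had 0.21 ± 0.12 and 0.11 ± 0.13 (adjusted p = 0.50 and 0.78).

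The chemokine and cytokine list was higher in 10 of 15 genes, with Ccl3 called (6 genes without the first Plekhg5+/+ SOD1-G93A library). Its median was 1.24 in Plekhg5+/+ and 0.577 in Plekhg5-/- mice. Tgfb1, a cytokine that holds microglia in check, had 5.12 to 6.25 CPM without the transgene and 16, 9.27 and 9.81 CPM in Plekhg5+/+ SOD1-G93A, and 10, 8.44 and 7.04 CPM in Plekhg5-/- SOD1-G93A mice (0.81 ± 0.15, adjusted p = 0.055). The monocyte attractant Ccl2 had 1.94 ± 0.37 and Ccl4 2.14 ± 0.44 (adjusted p = 0.0632 and 0.0865), while Il18 and Cx3cl1 had -0.06 and -0.02. Complement was higher in 13 of 16 genes, of which 0 were called (4 without that library), with medians of 0.898 in Plekhg5+/+ and 0.454 in Plekhg5-/- mice. C3ar1, the receptor for a fragment of C3, had 1.43 ± 0.26 and C3 0.75 ± 0.15 (adjusted p = 0.0632 and 0.0855). For C1s1, a protease of the classical pathway, the log2 fold change was 0.67 in Plekhg5+/+ and 0.91 in Plekhg5-/- mice, with 0.79 ± 0.21 on average (adjusted p = 0.11). The phagocyte NADPH oxidase, which makes superoxide, was higher in all 7 genes, with 0 called and 3 without that library. Its median was 0.98, with 1.37 in Plekhg5+/+ and 0.413 in Plekhg5-/- mice, and Cyba had the smallest p (0.98 ± 0.18, adjusted p = 0.055). Fc receptors were higher in 5 of 6 genes, with medians of 1.3 in Plekhg5+/+ and 0.43 in Plekhg5-/- mice. Of 20 lysosomal genes, 15 were higher, with a median of 0.39 (0.56 in Plekhg5+/+, 0.165 in Plekhg5-/-) and 0 called (8 without that library). Their sum was 3300 to 3890 CPM without the transgene, 4510 to 6960 in Plekhg5+/+ SOD1-G93A and 3840 to 4120 in Plekhg5-/- SOD1-G93A mice. Ctsd, a major protease of the lysosome, went from 496 to 574 CPM without the transgene to 639 to 1840 CPM with it (0.81 ± 0.21, adjusted p = 0.112). Its log2 fold change was 1.22 in Plekhg5+/+ and 0.39 in Plekhg5-/- mice.

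Genes of antigen presentation were higher in both classes, with 0 called. The 10 genes of MHC class I presentation had a median of 0.565, with 0.906 in Plekhg5+/+ and 0.217 in Plekhg5-/- mice, and 9 were higher. Without the first Plekhg5+/+ SOD1-G93A library that median was 0.322 and 5 were called, and with DESeq2 8 were called. Class II genes, which present antigens to CD4 T cells, were higher in all 7, with a median of 0.53, of which 0.49 in Plekhg5+/+ and 0.64 in Plekhg5-/- mice. Cd74, the invariant chain, had 12.1, 15.6 and 10.2 CPM in Plekhg5+/+ against 28.2, 11.6 and 19.0 in Plekhg5+/+ SOD1-G93A mice, which overlapped, and 9.30, 13.4 and 8.93 in Plekhg5-/- against 14.7, 20 and 19.6 in Plekhg5-/- SOD1-G93A mice, which did not. Its log2 fold change was 0.71 ± 0.19 (adjusted p = 0.124). Interferon-stimulated genes were higher in 13 of 14, with a median of 0.95 (1.48 in Plekhg5+/+, 0.447 in Plekhg5-/-) and 0 called. Without the first Plekhg5+/+ SOD1-G93A library the median was 0.56 and 2 were called. Ifitm3, which blocks the entry of viruses, had like values in both backgrounds (0.59 and 0.58, average 0.58 ± 0.12, adjusted p = 0.0855). Of 12 markers of T and NK cells, 5 passed the filter on low counts, and Cd3d, Cd3e and Cd3g did not. Lck, a kinase of T cells, had 0.90 ± 0.18 and Cd8a, a coreceptor of T cells, 2.34 ± 0.56 (adjusted p = 0.0855 and 0.104). Cd8a, Cd4 and Cd8b1 had means of 0.10, 0.15 and 0.13 CPM without the transgene and 0.54, 0.50 and 0.37 CPM with it. Such genes could pass the filter through the SOD1-G93A libraries, so that 4 of 5 were higher is no support for a rise. Of the 5 markers, 0 were separated in both backgrounds. Their summed level was 1.56 to 2.50 CPM without and 2.54 to 8.35 CPM with the transgene.

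Reactive astrocyte genes were higher in 13 of 16 and called in 0, with a median of 0.82 (1.24 in Plekhg5+/+, 0.65 in Plekhg5-/-). Without the first Plekhg5+/+ SOD1-G93A library the median was 0.58 and 8 were called, and with DESeq2 11 were called. Timp1, an inhibitor of matrix proteases, had 0.64 to 1.21 CPM without the transgene, 12.7, 3.56 and 3.66 CPM in Plekhg5+/+ SOD1-G93A and 2.04, 3.19 and 2.15 CPM in Plekhg5-/- SOD1-G93A mice. Both SOD1-G93A groups lay above the rest, and the log2 fold change was 2.27 ± 0.42 (adjusted p = 0.069). Vim, an intermediate filament, had 1.00 ± 0.20 (adjusted p = 0.0865) and Emp1 0.85 ± 0.16 (adjusted p = 0.063), whereas Gfap, the filament that defines astrocytes, had 1.23 in Plekhg5+/+ and 0.21 in Plekhg5-/- mice (0.72 ± 0.22, adjusted p = 0.16). General astrocyte markers were higher in 4 of 12, with a median of 0.07. Proliferation genes were higher in 12 of 14, with a median of 0.86 (1.09 and 0.44) and 0 called. Without that library the median was 0.558 and 1 was called, and with DESeq2 8 were called. Mki67, a protein of dividing nuclei, had 1.72 to 3.6 CPM without and 3.70 to 22.2 CPM with the transgene (1.91 ± 0.46, adjusted p = 0.11).

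**Figure D3:**
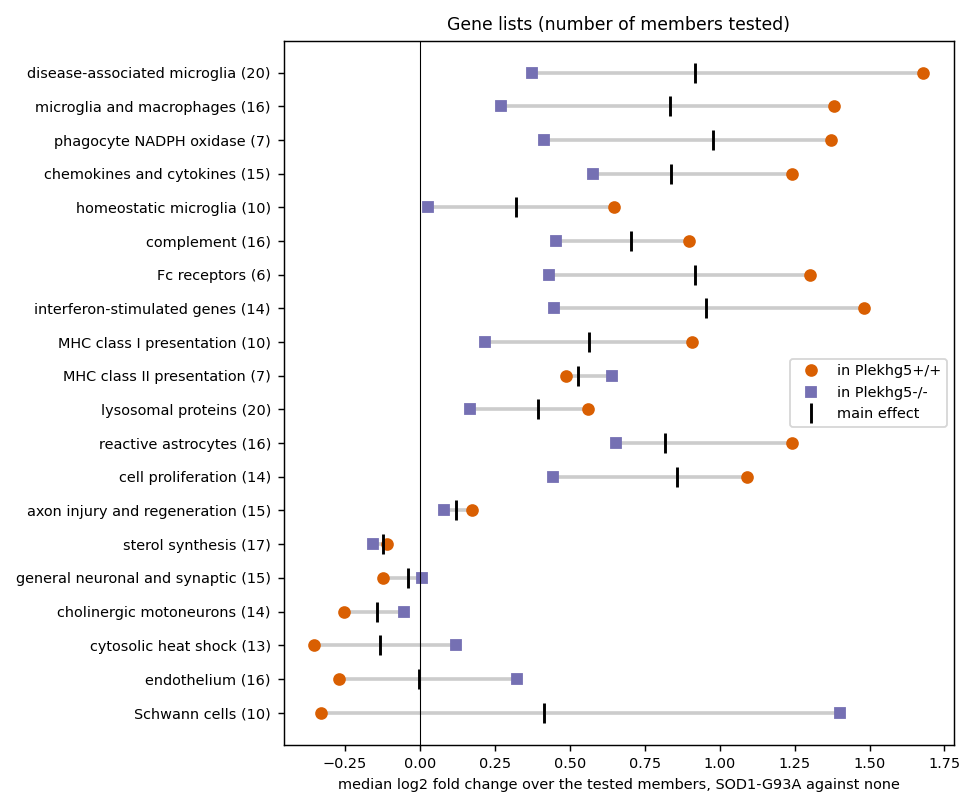
Median log2 fold change with SOD1-G93A over the tested members of 20 gene lists in Plekhg5+/+ (circles), in Plekhg5-/- mice (squares) and over both (black ticks), with the number of members tested in brackets. Immune and astrocyte lists lay right of 0 in both backgrounds and, except for MHC class II, farther right in Plekhg5+/+. Sterol synthesis lay left of 0 in both. Heat shock, endothelium, Schwann cells and general neuronal genes had medians of opposite sign, the last with a value near 0 in Plekhg5-/- mice (0.00511).

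Several motoneuron genes had lower values with the transgene, and 0 were called (1, Chodl, in the mean of both contrasts). Without the first Plekhg5+/+ SOD1-G93A library, 1 was called as lower and the median of the markers was -0.1. Of 14 motoneuron markers, 7 were lower at an unadjusted p under 0.05 and 1, Calca, was higher, with a median of -0.145 (-0.255 in Plekhg5+/+, -0.05 in Plekhg5-/-). Chodl, a lectin-like membrane protein of fast motoneurons (chromosome 16, 78930841 to 78951736, plus strand), had 42.4, 41.5 and 39.5 CPM in Plekhg5+/+ against 17.5, 29.3 and 22.6 in Plekhg5+/+ SOD1-G93A mice. In Plekhg5-/- mice it had 41.5, 38.7 and 44.0 against 34.3, 20.7 and 30.9 CPM with SOD1-G93A. No SOD1-G93A library reached the lowest of the others, and the log2 fold change was -0.68 ± 0.13 (adjusted p = 0.079). Chat, the enzyme that makes acetylcholine, had -0.23 ± 0.09, with -0.40 in Plekhg5+/+ and -0.07 in Plekhg5-/- mice (adjusted p = 0.24), and Ache, which cleaves it, -0.11 ± 0.04 (adjusted p = 0.23). The summed level of the markers was 1870 to 2140 CPM without the transgene, 1500 to 1890 in Plekhg5+/+ SOD1-G93A and 1620 to 2060 in Plekhg5-/- SOD1-G93A mice, so that the groups overlapped. Of 15 general neuronal genes, 2 were lower, the neurofilaments Nefl (-0.24 ± 0.07) and Nefm (-0.27 ± 0.10), with adjusted p = 0.124 and 0.234. The median of the 15 was -0.123 in Plekhg5+/+ and 0.00511 in Plekhg5-/- mice. Of 10 interneuron markers, 0 reached an unadjusted p under 0.05. Among 15 axon injury genes, 4 were higher. Beside Atf3 these were Sprr1a, a protein of growing axons, with 1.15 and 1.09 in the backgrounds (1.12 ± 0.29, adjusted p = 0.11), Plaur and Ecel1. Trib3, a target of the integrated stress response, also had like values in both (0.77 and 0.85, average 0.81 ± 0.18, adjusted p = 0.094), while Atf4 and Ddit3, the factors upstream of it, had 0.05 and 0.04.

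Genes of sterol synthesis had small negative values. All 17 had a negative log2 fold change, 9 of them at an unadjusted p under 0.05 and 0 called, with a median of -0.12 (-0.11 in Plekhg5+/+, -0.16 in Plekhg5-/-, and -0.10 without the first Plekhg5+/+ SOD1-G93A library). Idi1, an isomerase early in the pathway, had 65.2 to 75.2 CPM without and 48.0 to 68.6 CPM with the transgene (-0.24 ± 0.08, adjusted p = 0.18), and Hmgcs1, which makes the precursor of mevalonate, -0.20 ± 0.07 (adjusted p = 0.20). The ranges of both genes overlapped. In the summed level of the list, the third library of each SOD1-G93A group (1940 and 2030 CPM) was within or close to the 1960 to 2110 CPM of the libraries without the transgene, and the other 4 had 1590 to 1880 CPM.

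**Figure D4:**
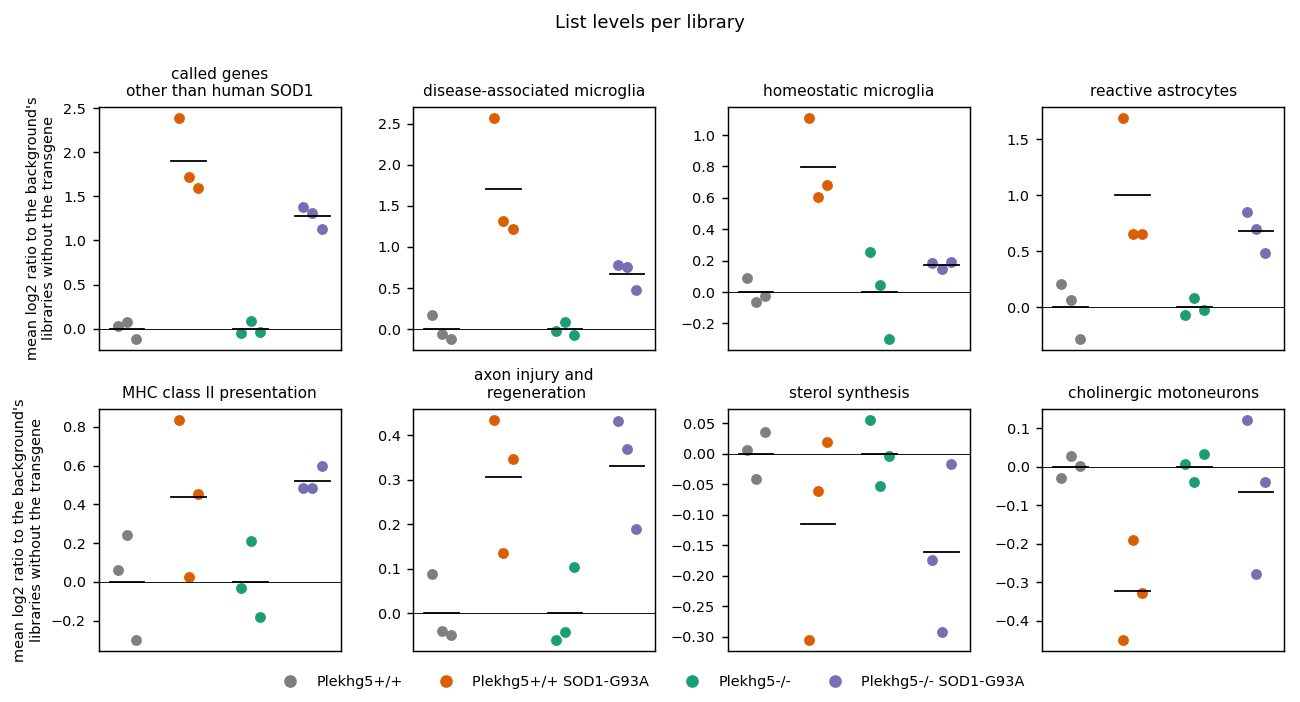
Mean log2 ratio of the members of 8 gene groups in each library to the mean of the 3 libraries without the transgene of its own Plekhg5 background (y axis, a different range in each panel), with 1 point per mouse and the mean of each genotype as a line. The 6 SOD1-G93A libraries were above the others for the called genes, which had been picked by the test on these same libraries. The groups overlapped for homeostatic microglia, MHC class II, sterol synthesis and motoneuron genes.

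No gene was called as lower over both backgrounds, and the 6 with the smallest p were looked at after their values were seen. Spp2, a secreted protein of bone (chromosome 1, 88406966 to 88428300, plus strand), had 0.64, 0.44 and 0.40 CPM in Plekhg5+/+ against 0.12, 0.13 and 0.18 in Plekhg5+/+ SOD1-G93A mice, and 0.35, 0.30 and 0.25 in Plekhg5-/- against 0.19, 0.15 and 0.13 CPM in Plekhg5-/- SOD1-G93A mice. The 6 SOD1-G93A libraries were below the 6 others, with a log2 fold change of -1.36 ± 0.25 (adjusted p = 0.055). Ide, the insulin-degrading enzyme (chromosome 19, 37268741 to 37334544, minus strand), was far more abundant. It had 92.6, 105 and 96.0 CPM in Plekhg5+/+ against 68.1, 59.8 and 63.7 with SOD1-G93A, and 127, 98.3 and 130 CPM in Plekhg5-/- against 94.0, 97.1 and 62.8 with SOD1-G93A (-0.55 ± 0.10, adjusted p = 0.063). Its groups were separated within each background but overlapped between them. After Chodl, the next were the zinc finger genes Zfp968 (-0.33 ± 0.07) and Gm2004 (-0.33 ± 0.07) of a cluster on chromosome 2, where no library had a whole count in these genes because reads were split among copies, and the long noncoding RNA Gm40820 (-1.14 ± 0.24, adjusted p = 0.0855, 0.0855 and 0.0865). In the average of the contrasts within both backgrounds, fitted with 4 genotypes in place of 2 additive terms, 245 genes were called, 230 higher (1.14%) and 15 lower (0.0744%), among them Spp2, Ide, Chodl, Zfp968, Gm2004, Gm40820 and Bcan, a proteoglycan of the extracellular matrix (adjusted p = 0.028 to 0.048). All 22 genes of the additive model were within the 245.

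**Figure D5:**
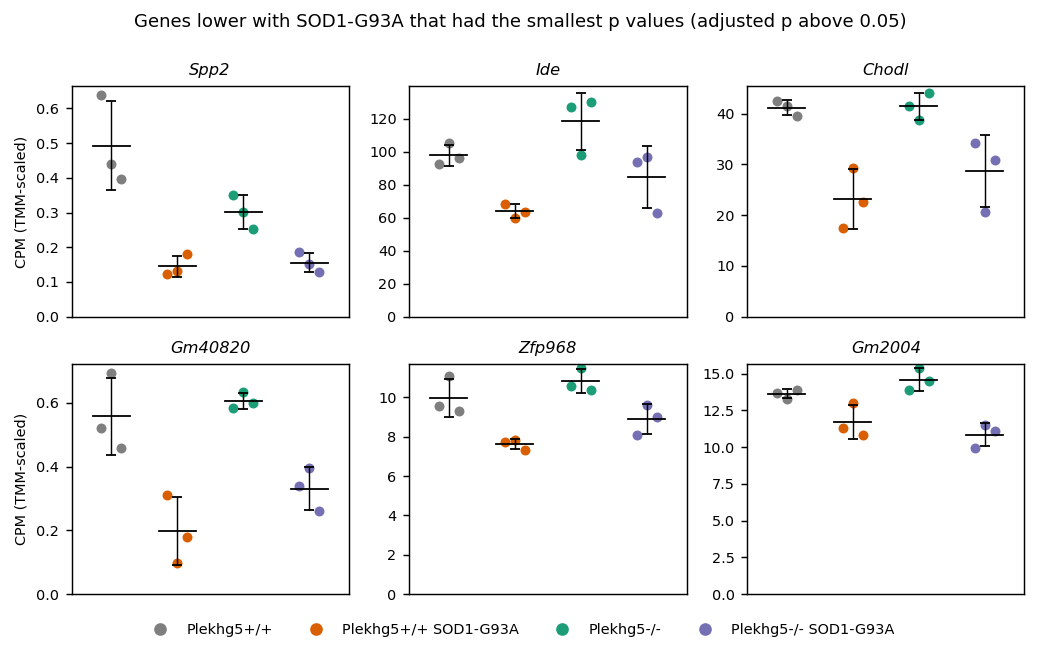
Normalized CPM (linear axis from 0) of the 6 genes lower with SOD1-G93A that had the smallest p, with 1 point per mouse, the mean as a line and the SD as bars (n = 3 per genotype). SOD1-G93A libraries lay below the controls of their own background in all 6 genes, by the most in Spp2 (log2 fold change -1.36), and none of the 6 passed an adjusted p of 0.05.

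Some programs had no common response. Cytosolic heat shock genes had a median of -0.35 in Plekhg5+/+ and 0.12 in Plekhg5-/- mice, and 9 of 13 had an unadjusted interaction p under 0.05, against 9.05% of all genes. Their summed level was 7420, 6270 and 5280 CPM in the Plekhg5+/+ libraries and 4790 to 5440 CPM in the 9 others, so that the first and second Plekhg5+/+ libraries stood apart. Hsph1, a chaperone of the Hsp110 family, was separated in opposite directions (-0.74 and 0.21). Endothelial markers were at -0.27 and 0.32, with 5 of 16 separated in opposite directions (0.724% of all genes), and Schwann cell genes, which come from the spinal roots, at -0.33 and 1.40, with 8 of 10 at an unadjusted interaction p under 0.05. The medians in the additive term were -0.135, -0.01 and 0.41, and without the first Plekhg5+/+ SOD1-G93A library those of endothelium and Schwann cells were 0.0964 and 0.66. The Schwann cell sum was 293 to 597 CPM without the transgene, 320 to 455 in Plekhg5+/+ SOD1-G93A and 583 to 796 in Plekhg5-/- SOD1-G93A mice, and the root content of the dissected tissue was not tested. Markers of mature oligodendrocytes, of their progenitors and of ependymal cells had medians of -0.07, -0.02 and 0.02, of which that of progenitors was 0.0531 with limma voom. The median of mature oligodendrocytes was 0.121 in Plekhg5+/+ and -0.189 in Plekhg5-/- mice. Of its 12 genes, 6 had an unadjusted interaction p under 0.05, against 9.05% of all genes. In the same order, the backgrounds had 0.0535 and -0.00212 for progenitors and -0.0197 and -0.0287 for ependymal cells.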

How the data were processed

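RNA of whole spinal cord was sequenced from 12 mice, 3 per genotype, from poly-A RNA with a stranded kit and 75-base single reads. Per the submitters' notes, the authors used bcl2fastq 2.20.0.422, Cutadapt 2.4, STAR 2.7.2b on GRCm38.p6 with human SOD1 cDNA added, and featureCounts 1.6.4. The deposited values are estimated counts, since reads that matched several genes were split among them, and 17.3 to 18.1% of entries were not whole. They were rounded here. Library totals were 30415643 to 38743628, and libraries of a genotype differed by more than counting noise (chi-square over degrees of freedom 5.82 to 28.4).

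Genes passing edgeR's filterByExpr (20155 of 45906) were fitted with edgeR 4.0.16 in R 4.3.3 (robust quasi-likelihood, TMM, Benjamini-Hochberg over all genes, threshold 0.05). The study's own test was DESeq2. The effect in each background and the interaction came from a fit of 4 genotypes. CPM are normalized and log2 values given with SE. In simulated data with the same samples, 191 of 200 changed genes were recovered and 7 others called (19979 genes). The simulation gave both backgrounds the same effect and set no library apart. In the data the first Plekhg5+/+ SOD1-G93A library did stand apart, so the recovered share does not measure power here. DESeq2 1.42.0, limma 3.58.1 (voom), other filters and scalings, a replicate block and leaving out each library were alternatives. Figures used matplotlib 3.10.9.

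Genes named were the 3 targeted genes, the 12 largest increases, the 6 most abundant per length, the 4 members of smallest p in each of 39 lists, and the genes nearest the threshold. The other called genes, other list members and the 6 lower genes were chosen after their values were seen. The gene lists and the comparison were chosen with earlier results of these data known. Samples were grouped by their labels. The labels number the 3 samples of a group without naming the animals, so p-values measure the spread between these samples. Some items are not reported here.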

Additional observations from a re-analysis of the deposited data

Results flagged for a closer look

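In 90 groups of 6 libraries, 26 had a library whose gap to the nearest other exceeded Dixon's 95% critical value. For a single group of like samples, chance gives about 1 in 20. The groups here pooled both Plekhg5 genotypes and shared their libraries, so the 26 cannot be set against that rate. Of the 26, 21 were the first Plekhg5+/+ SOD1-G93A library, as the highest of the 6 with the transgene. Its levels, each with the nearest other library, were 58.3 CPM of Gpnmb (27.9), 169 of Lyz2 (85.7), 6.27 of Lyz1 (4.03), 55.3 of Arpc1b (36.8), 24.3 of Capg (13.4), 8.98 of S100a4 (5.58), 14.3 of Atf3 (6.91) and 8.23 of Ccl3 (3.56). It also had 2.02 CPM of Il1rn (0.99), 2.02 of Ugt1a7c (1.17), 8.48 of Emp3 (6.24) and 1.52 of Kif18b (0.709). Without it, all 22 genes were still called.

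The summed CPM of gene lists showed the same library. It had 2460 for microglia and macrophages (1330), 565 for homeostatic (390) and 4390 for disease-associated microglia (2570), 1680 for complement (917), 798 for MHC class I (458) and 367 for interferon-stimulated genes (168). Lysosomal proteins were at 6960 (4520), the phagocyte NADPH oxidase at 124 (66.2) and reactive astrocytes at 6250 (3410). The remaining 5 gaps were in the third Plekhg5+/+ SOD1-G93A library with 174 CPM of mouse Sod1 (156), the first Plekhg5-/- library with 5.47 CPM of human SOD1 (1.64) and 552 for chemokines and cytokines (502), the second Plekhg5-/- library with 145 for interferon-stimulated genes (120) and the first Plekhg5-/- SOD1-G93A library with 1020 for axon injury genes (931).

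The 3 genes with the smallest interaction p had effects of opposite sign in the backgrounds. The log2 fold change of Angpt2, a ligand of vessels, was -0.90 in Plekhg5+/+ and 0.85 in Plekhg5-/- mice, that of Ly6c1 -0.56 and 0.55, and that of Gm34776 0.21 and -0.48. The difference did not pass adjustment (adjusted p = 0.235, edgeR).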

How the results depend on the processing

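The 22 calls of the main effect became 638 with DESeq2 (518 higher, 120 lower), 652 with its prior (527 and 125), 129 with limma voom (87 and 42), 6 with at least 10 counts in every library, 133 with Y-linked transcripts as a covariate (120 and 13) and 245 with the mean of both contrasts (230 and 15). Chosen after seeing the data, that mean gave 826 with DESeq2, 60 with voom (18 of the 22 among them) and 306 without the first Plekhg5+/+ SOD1-G93A library. With DESeq2 size factors it stayed at 22, without a filter it was 27 (17 shared), with the transgene alone 19 and without human SOD1 18. Leaving out 1 library gave 3 to 196. In Plekhg5+/+ 498 calls became 1175 with DESeq2, 1205 with its prior, 282 with voom and 2 to 771 without 1 library. In Plekhg5-/- 1 call became 44, 42 with the prior, 0 with the count minimum of 10, and 1 to 9 without 1 library. The interaction went from 0 to 98 with DESeq2, 1 without a filter and 0 to 40 without 1 library, while voom gave 0. DESeq2 with a prior could not be fitted for it. Of the called genes, 6 were separated in both backgrounds under the count minimum and 3 to 183 without 1 library. The cause was not tested. No called result reversed, but 2 list medians near 0 changed sign: oligodendrocyte progenitors (-0.0175) were at 0.0531 with voom and 0.0117 with the Y covariate, and endothelium (-0.00524) at 0.0908 with voom and 0.0964 without the first Plekhg5+/+ SOD1-G93A library. A replicate block gave 49 calls (21 of the 22 among them), 631 in Plekhg5+/+, 1 in Plekhg5-/- and 0 interactions. Correlations of same-numbered libraries were -0.163 to 0.318 in 18 pairs, and 6 of 12 libraries correlated best with their own number. These values did not establish a pairing by number and cannot exclude a partial one. For named genes, 3725 planned values kept their side of the threshold, 309 passed it and 138 no longer did.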

Other observations

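Genes of some other cell types varied widely between libraries. Neutrophil genes summed to 13.2 to 73.2 CPM without SOD1-G93A, 40.2 to 137 in Plekhg5+/+ SOD1-G93A and 20.9 to 235 in Plekhg5-/- SOD1-G93A mice. Their median log2 fold change was 1.45 over 8 genes, 3 of them higher at an unadjusted p under 0.05 and 0 called. Ly6g and Elane had means of 0.21 and 0.28 CPM without the transgene. Such genes could pass the filter through the SOD1-G93A libraries, so this median and count are no support for a rise. Markers of skeletal muscle ranged from 2.93 to 162 CPM without and from 4.35 to 88.1 CPM with the transgene. Genes of meningeal fibroblasts had a median of 0.03 in Plekhg5+/+ and 0.81 in Plekhg5-/- mice, 4 of 10 being higher at an unadjusted p under 0.05 and 0 called.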
